A study of Saccharomyces cerevisiae and Saccharomyces paradoxus and Saccharomyces cerevisiae x Saccharomyces paradoxus with 12 samples.

Results

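The mRNA of the S. cerevisiae alleles was compared between an F1 hybrid, which carries 1 genome of S. cerevisiae and 1 of S. paradoxus in each nucleus, and diploid S. cerevisiae itself. The comparison covered all 5226 genes of the count table, which are genes with an ortholog in both species, and it used 4 of the 12 samples, or 4 of the 16 columns. The hybrid group was strain GSY88, with 2 RNA-seq libraries whose reads were counted for each allele separately, and only the S. cerevisiae allele of each is the subject here. The parental group was diploid S. cerevisiae, strain GSY83, with 2 RNA-seq libraries. Both strains grew in rich glucose medium (YEP with dextrose) at 30 °C to an OD600 between 0.6 and 0.9 and received cycloheximide, a drug that stalls translating ribosomes, for 5 min before harvest. The hybrid and each parent are represented by 1 strain, and the labels do not say whether replicates were separate cultures, so the p-values measure the spread between these libraries, which may be technical. Ribosome profiling (Ribo-seq) libraries of the same strains, n = 2 per strain, and RNA-seq libraries of diploid S. paradoxus (GSY82, n = 2) are used beside the main comparison. Gene positions are those of the coding region in sacCer3, counted from 1. The parental columns carry the word "Mix" in their headers, and the labels do not explain it.

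In a hybrid cell both parental copies of a gene sit in 1 nucleus and meet the same set of transcription factors, chromatin enzymes and RNA-decay machinery. The S. cerevisiae allele brings its own promoter and coding sequence into that cell, so a comparison of the same allele in hybrid and parental cells holds the allele constant and changes its cellular surroundings. Budding yeast tunes many biosynthetic genes to nutrient supply through dedicated regulators, among them Bas1 and Pho2 for purine synthesis, Aft1 for iron uptake, Zap1 for zinc uptake, Upc2 for sterols, and Msn2 and Msn4 for the general stress genes. Mating-type regulators keep haploid-specific genes silent in a/alpha diploids.

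The 2 hybrid columns held 6932791 and 6456613 counts and the 2 parental columns 7109313 and 7201063. Values below are counts per 1000000 counts of the column (CPM). After a filter on low counts 5129 genes were tested and 97 were not. The hybrid libraries differed from each other more than the parental libraries did. Across genes, log2 CPM correlated by 0.957 between the hybrid libraries and by 0.994 between the parental ones, and 504 tested genes differed over 2-fold between the hybrid libraries, against 16 between the parental ones. With column totals as the scale, the median gene was lower in the hybrid by 0.35 on the log2 scale, while the 100 most abundant genes took 32.6% and 30.4% of the counts in the hybrid and 26.3% and 27.0% in the parent. With TMM scaling, which centres on the bulk of genes, the median was 0.0066. Medians of gene lists are therefore given relative to the median of all genes tested. Both strains are labelled diploid. The a-factor gene MFA1, which is specific to mating type a, had 0.577 and 0.620 CPM in the hybrid and 2.11 and 1.53 CPM in the parent. A single gene chosen after its values were seen does not establish ploidy.

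In edgeR's quasi-likelihood test, with p-values adjusted after Benjamini and Hochberg over all genes tested, 43 of 5129 genes passed at 0.05 (0.838%). Of these, 18 were higher in the hybrid (0.351%) and 25 lower (0.487%), with adjusted p between 0.0207 and 0.0485. Among the called genes, the largest gains were at HMX1, HXT2, ADE17 and CYC1, between 6.94-fold and 9.09-fold. The largest called losses were at HSP12, YRO2, PHM8, GPM2 and YHB1, which were between 8.51-fold and 18.3-fold lower in the hybrid. In each of the 43 genes both hybrid values lay at least 2-fold above, or at least 2-fold below, both parental values. Of all genes tested, 0.78% lay apart by 2-fold with the hybrid higher and 3.65% with the hybrid lower. The smallest called difference was 1.3 on the log2 scale, and 1698 genes had an unadjusted p under 0.05. With TMM scaling 37 genes passed (0.721%), 30 higher (0.585%) and 7 lower (0.136%), and they included all 18 of the higher genes above and 7 of the 25 lower ones, namely HSP12, YRO2, PHM8, GPM2, YHB1, GRE2 and SSE2. The other 18 lower genes had adjusted p between 0.0565 and 0.0736 with TMM scaling. A fit over all 16 columns, whose estimate of the spread also draws on the other groups, called 1511 genes (29.3%), 211 higher (4.09%) and 1300 lower (25.2%), with all 43 genes among them in the same direction. Without parental library 1, 39 genes passed, with 21 of the 43 among them, and without parental library 2, 31 passed, with 19 of the 43. Without hybrid library 1 the number was 3493 and without hybrid library 2 it was 3083, with all 43 among them each time, since a lone hybrid library is then taken to vary as little as the parental ones. In all, 13 of the 43 were called in each of the 11 alternatives run, 7 higher (HMX1, HXT2, ADE17, CYC1, ZRT1, ADE13 and FRE4) and 6 lower (HSP12, YRO2, PHM8, GPM2, YHB1 and GRE2). For a single gene, the smallest exact two-sided permutation p that 2 against 2 libraries allow is 0.333.

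**Figure D1:**
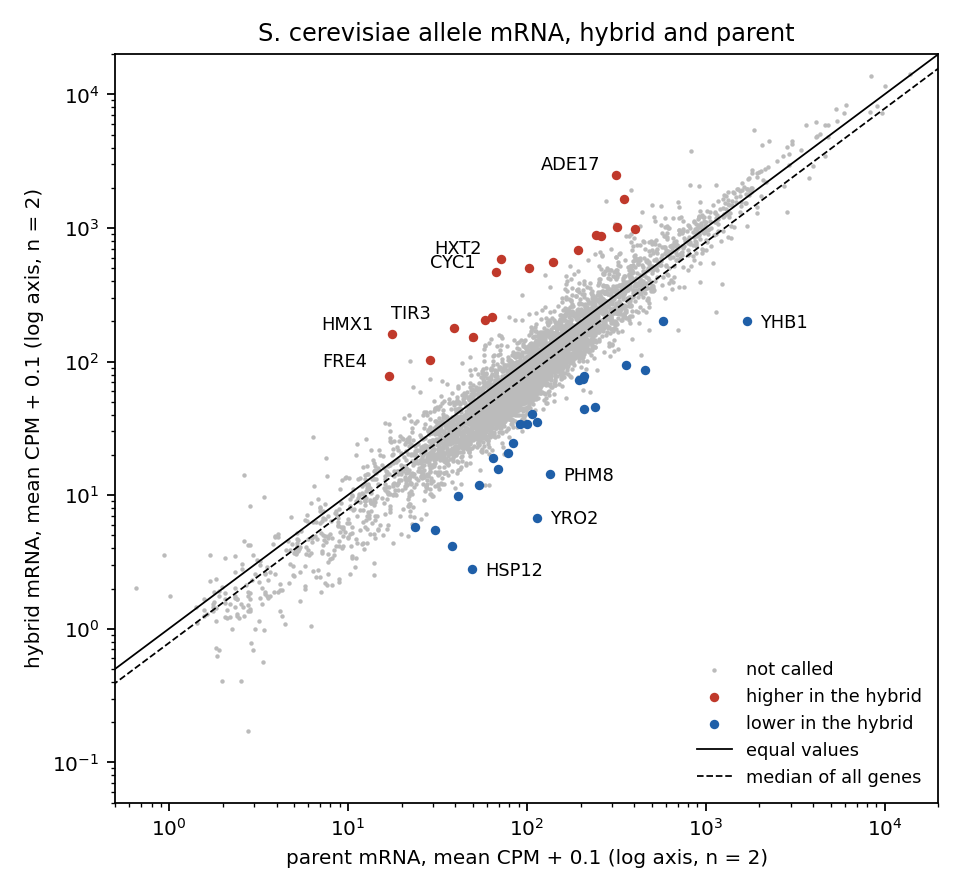
Mean CPM + 0.1 of the S. cerevisiae allele in the hybrid (vertical, n = 2) against the parent (horizontal, n = 2), both on log axes, for each of the 5129 genes tested. Red points are the 18 genes higher in the hybrid and blue points the 25 lower; most grey points lie along the dashed line, which marks the median of all genes (-0.35 on the log2 scale), below the solid line of equal values.

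Of the 43 gene lists, purine nucleotide synthesis held the most called genes. Of its 17 tested members 6 rose in the hybrid and 0 fell, against 0.351% and 0.487% of all genes. The pathway builds inosine monophosphate (IMP) on a ribose phosphate and then converts it to AMP or GMP. ADE4 (chromosome XIII, 865559 to 867091) encodes the amidotransferase of the first step, and it had 749 and 612 CPM in the hybrid and 195 and 193 CPM in the parent. Both hybrid values were more than 3-fold above both parental values, and the difference was 1.81 on the log2 scale (SE 0.20, adjusted p = 0.0459 in the edgeR test, as for each gene below). ADE2 (chromosome XV, 564476 to 566191), whose loss turns yeast colonies red, encodes the carboxylase in the middle of the pathway and had 803 and 974 CPM in the hybrid and 238 and 251 CPM in the parent (1.86, SE 0.20, adjusted p = 0.0459). ADE1 (chromosome I, 169375 to 170295) encodes the enzyme after Ade2 and had 462 and 654 CPM in the hybrid and 148 and 132 CPM in the parent (1.99, SE 0.25, adjusted p = 0.0485). In none of these 3 genes did the groups overlap.

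The largest value of the pathway was at its end. ADE17 (chromosome XIII, 507502 to 509280) encodes the bifunctional enzyme that closes the purine ring to give IMP. It had 1657 and 3357 CPM in the hybrid and 274 and 359 CPM in the parent, a difference of 2.99 (SE 0.39, adjusted p = 0.0485), and the hybrid libraries differed 2-fold from each other while both lay above both parental values. ADE13 (chromosome XII, 844282 to 845730), whose lyase acts both before IMP and on the branch to AMP, had 1289.7 and 1985 CPM in the hybrid and 345 and 355 CPM in the parent (2.23, SE 0.26, adjusted p = 0.0459). ADE12 (chromosome XIV, 234413 to 235714) encodes the first enzyme of the AMP branch and had 842 and 899.5 CPM in the hybrid and 238 and 284 CPM in the parent (1.74, SE 0.20, adjusted p = 0.0459). ADE6 and the gene of the bifunctional Ade5,7 enzyme (written ADE57 in the gene table), which act between Ade4 and Ade2, had differences as large but did not pass. ADE6 had 1100.1 and 2109 CPM in the hybrid and 290.2 and 265 CPM in the parent (2.53, SE 0.34, adjusted p = 0.0516), and ADE57 1256 and 2621 CPM in the hybrid and 373 and 397 CPM in the parent (2.33, SE 0.37, adjusted p = 0.0572). In both genes hybrid library 2 held about 2-fold the value of hybrid library 1, so the spread within the hybrid was wide. ADE3, which supplies folate-bound carbon units to the pathway, behaved alike, with 765 and 1885 CPM in the hybrid and 415 and 463 CPM in the parent (1.59, SE 0.43, adjusted p = 0.0784). So did SHM2, of the list of glutamate, glutamine, asparagine and serine synthesis, the cytosolic serine hydroxymethyltransferase gene that feeds the same folate pool, with 2251 and 5318 CPM in the hybrid and 759 and 889 CPM in the parent (2.20, SE 0.42, adjusted p = 0.0582).

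Not every gene of the pathway was raised. ADE16, the paralog of ADE17 for the same reactions, had 362 and 316 CPM in the hybrid and 485 and 530.1 CPM in the parent (-0.58, SE 0.19, adjusted p = 0.107). IMD3, which encodes an IMP dehydrogenase of the GMP branch, had 552 and 740.5 CPM in the hybrid and 1013 and 899.9 CPM in the parent (-0.57, SE 0.21, adjusted p = 0.138). Both lay below the parent without passing, and both passed as lower in the fit over all 16 columns, where 10 members were higher and 2 lower. The list median was 1.95 above the median of all genes, at 1.95 in hybrid library 1 and 2.04 in hybrid library 2. Summed over the list, purine mRNA was 12807 and 18718 CPM in the hybrid and 6137 and 6238 CPM in the parent. Without parental library 1 or 2, ADE17 and ADE13 stayed called and ADE1, ADE2, ADE4 and ADE12 did not. Uncalled genes named outside the selection rule, here and below, were chosen after their values were seen. In bulk libraries fewer cells that hold an mRNA and less of that mRNA per cell cannot be told apart, here or in any later comparison.

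Metal uptake and heme turnover gave 3 of the largest gains. HMX1 (chromosome XII, 552724 to 553677) encodes the heme oxygenase that frees iron from heme, and it had 142 and 178 CPM in the hybrid and 21.4 and 13.7 CPM in the parent (3.18, SE 0.29, adjusted p = 0.0368). FRE4 (chromosome XIV, 739951 to 742110), a ferric reductase gene of siderophore iron uptake, had 78.8 and 76.5 CPM in the hybrid and 17.9 and 16.1 CPM in the parent (2.19, SE 0.21, adjusted p = 0.0368). The other 24 tested genes of the iron list did not pass. They included the high-affinity iron oxidase gene FET3, with 279 and 431 CPM in the hybrid and 249 and 108 CPM in the parent, where the parental replicates themselves were more than 2-fold apart. ENB1, the enterobactin transporter gene, had 311 and 735 CPM in the hybrid and 276 and 229 CPM in the parent (1.05, SE 0.42, adjusted p = 0.150). ZRT1 (chromosome VII, 20978 to 22108), the high-affinity zinc transporter gene and a target of Zap1, had 414 and 587 CPM in the hybrid and 110.1 and 95.7 CPM in the parent (2.28, SE 0.25, adjusted p = 0.0459). In the same zinc list IZH4 (chromosome XV, 126982 to 127920), a membrane protein gene linked to zinc homeostasis, moved the other way, with 13.6 and 9.91 CPM in the hybrid and 58.1 and 49.3 CPM in the parent (-2.19, SE 0.27, adjusted p = 0.0459). The other 11 tested zinc genes did not pass.

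HXT2 (chromosome XIII, 288079 to 289704), a glucose transporter gene that is switched on when glucose is low, had the second largest called gain. It had 488 and 693 CPM in the hybrid and 83.7 and 59.2 CPM in the parent (3.05, SE 0.30, adjusted p = 0.0431). No other of the 12 tested genes of glucose transport and sensing passed. MIG2, the gene of a glucose-induced repressor, had 9.52 and 10.5 CPM in the hybrid and 30.0 and 27.8 CPM in the parent (-1.52, SE 0.24, adjusted p = 0.0572), and was lower in the fit over all 16 columns. TIR3 (chromosome IX, 333727 to 334536), a cell wall mannoprotein gene of low-oxygen growth, had 175 and 184 CPM in the hybrid and 35.2 and 42.8 CPM in the parent (2.20, SE 0.20, adjusted p = 0.0368). MMP1, the S-methylmethionine permease gene, had 148 and 158 CPM in the hybrid and 54.3 and 45.4 CPM in the parent (1.62, SE 0.20, adjusted p = 0.0459). HSP60, which encodes the mitochondrial chaperonin, had 1013 and 957 CPM in the hybrid and 400.3 and 402 CPM in the parent (1.30, SE 0.17, adjusted p = 0.0485), the smallest called gain. YER053C-A, a small gene of unknown function, had 109.9 and 95.1 CPM in the hybrid and 25.6 and 32.1 CPM in the parent (1.83, SE 0.22, adjusted p = 0.0459). Hybrid and parental values did not overlap in any called gene of this paragraph.

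The respiratory chain and the sterol pathway each gave a called gain. CYC1 (chromosome X, 526335 to 526664) encodes the main cytochrome c, the electron carrier between the bc1 complex and cytochrome oxidase. It had 526 and 411 CPM in the hybrid and 73.7 and 61.2 CPM in the parent (2.80, SE 0.24, adjusted p = 0.0357), and no other of the 37 tested oxidative phosphorylation genes passed (0.351% of all genes were higher). In the fit over all 16 columns 10 of these genes were higher and 0 lower, beside 4.09% and 25.2% of all genes. The list median was 0.65 above that of all genes, at 0.68 in hybrid library 1 and 0.69 in hybrid library 2. NDE1, the external NADH dehydrogenase gene, had 625 and 627 CPM in the hybrid and 279 and 245 CPM in the parent (1.26). COX5A, a cytochrome oxidase subunit gene, had 186 and 224 CPM in the hybrid and 76.9 and 96.0 CPM in the parent (1.24). CYT1, the cytochrome c1 gene, had 294 and 158 CPM in the hybrid and 98.3 and 107 CPM in the parent (1.14). None of these 3 passed the 4-column test, with adjusted p of 0.0552, 0.0582 and 0.0882, and all 3 passed in the 16-column fit.

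CYB5 (chromosome XIV, 416940 to 417302), the cytochrome b5 gene that passes electrons to sterol and lipid enzymes, had 235 and 199 CPM in the hybrid and 67.2 and 60.3 CPM in the parent (1.76, SE 0.20, adjusted p = 0.0459). No other gene passed among 28 tested genes of ergosterol synthesis, the pathway to the main sterol of fungal membranes. In 18 of the 28 both hybrid values lay above both parental values, which was so for 11.5% of all genes, and the 16-column fit called 16 higher and 0 lower. The list median was 0.93 above that of all genes, at 0.77 in hybrid library 1 and 0.95 in hybrid library 2. Early, mevalonate steps were among the higher values. ERG13, the HMG-CoA synthase gene, had 1170.2 and 1226 CPM in the hybrid and 485 and 538 CPM in the parent (1.23, SE 0.17, adjusted p = 0.0523). HMG1, which encodes HMG-CoA reductase, the controlled step of the pathway, had 408 and 638 CPM in the hybrid and 173 and 174 CPM in the parent (1.59, SE 0.27, adjusted p = 0.0579), and MVD1, the mevalonate pyrophosphate decarboxylase gene, 401 and 471 CPM in the hybrid and 165 and 166 CPM in the parent (1.40, SE 0.20, adjusted p = 0.0523). These values were at least 2-fold apart without passing. Of the late steps, ERG11, the target of azole drugs, had 1006 and 1369 CPM in the hybrid and 642 and 668 CPM in the parent (0.86).

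Of genes at the border of sterol and fatty acid metabolism, 2 more rose. YEH1, a steryl ester hydrolase gene, had 183 and 229.7 CPM in the hybrid and 64.4 and 51.8 CPM in the parent (1.83, SE 0.23, adjusted p = 0.0485). OLE1 (chromosome VII, 398628 to 400160), the single fatty acid desaturase gene of yeast, had 964 and 1052 CPM in the hybrid and 352 and 284 CPM in the parent (1.67, SE 0.20, adjusted p = 0.0459). No other gene passed among the 27 tested genes of fatty acid and phospholipid synthesis. ACC1, the acetyl-CoA carboxylase gene, had 970.2 and 1082 CPM in the hybrid and 509 and 351 CPM in the parent (1.25, SE 0.24, adjusted p = 0.0582), and FAS2, a fatty acid synthase gene, 1306 and 1846 CPM in the hybrid and 741 and 654 CPM in the parent (1.18, SE 0.23, adjusted p = 0.0584). Neither passed, and neither pair of groups overlapped.

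**Figure D2:**
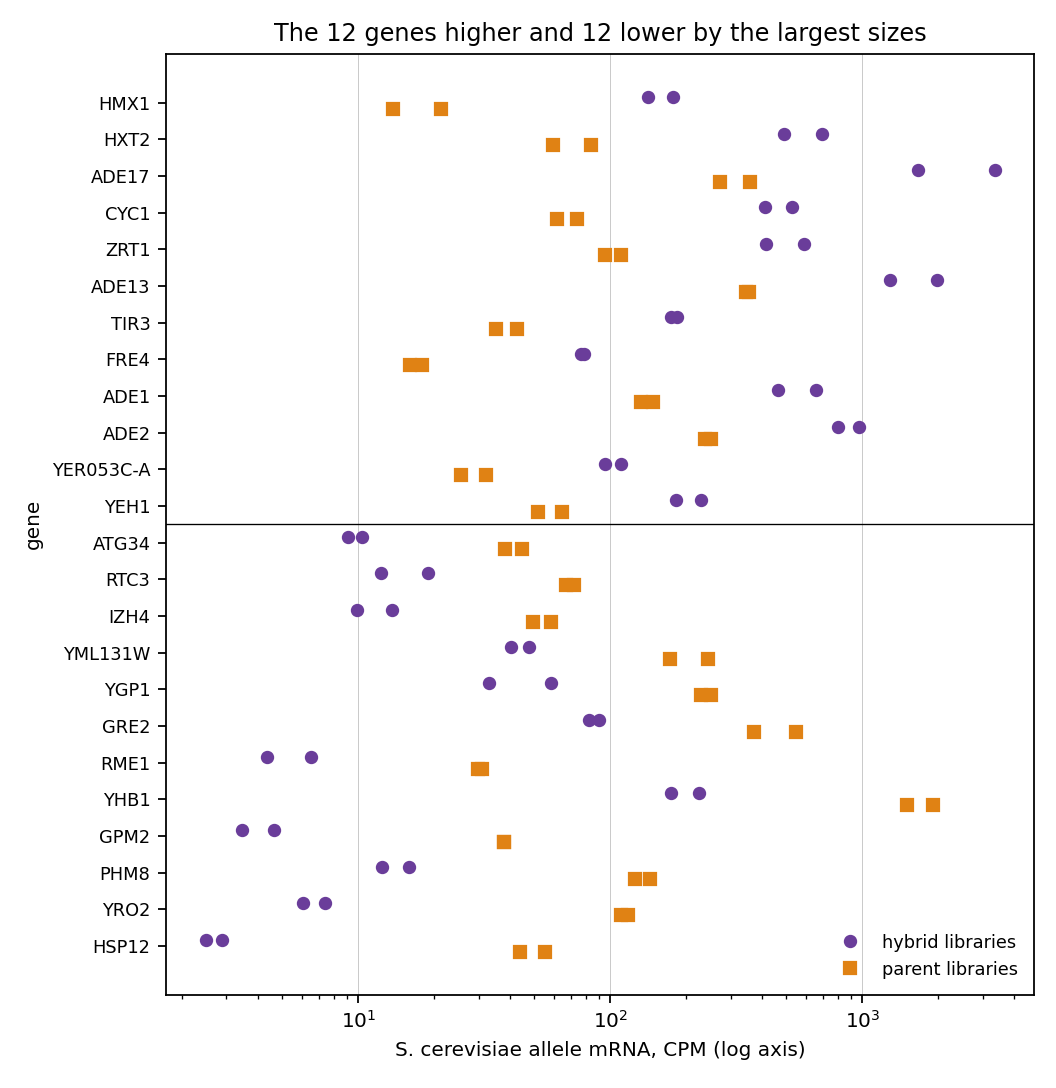
CPM of the S. cerevisiae allele on a log axis, in each of the 2 hybrid libraries (purple circles) and the 2 parental libraries (orange squares), for the 12 called genes with the largest gains (upper block) and the 12 with the largest losses (lower block). Only genes whose hybrid and parental values do not overlap were picked, so in each of the 24 the circles stand apart from the squares by that choice.

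Genes of the general stress response held the 2 largest losses among the called genes. HSP12 (chromosome VI, 107256 to 107585), a small membrane-stabilising stress protein gene, had 2.88 and 2.48 CPM in the hybrid and 55.0 and 43.7 CPM in the parent (-4.19, SE 0.29, adjusted p = 0.0233). YRO2 (chromosome II, 343101 to 344135), a membrane protein gene related to HSP30, had 7.36 and 6.04 CPM in the hybrid and 109.9 and 117 CPM in the parent (-4.08, SE 0.23, adjusted p = 0.0207). Both fell to under 10 CPM in the hybrid, and neither pair of groups overlapped. GRE2 (chromosome XV, 43694 to 44722), a methylglyoxal reductase gene, had 90.2 and 82.6 CPM in the hybrid and 371 and 546 CPM in the parent (-2.41, SE 0.26, adjusted p = 0.0459). YGP1 (chromosome XIV, 336545 to 337609), a secreted glycoprotein gene that responds to nutrient limitation, had 33.0 and 58.2 CPM in the hybrid and 229 and 251 CPM in the parent (-2.39, SE 0.32, adjusted p = 0.0485), and RTC3 (chromosome VIII, 280820 to 281155) had 12.3 and 18.9 CPM in the hybrid and 66.5 and 71.7 CPM in the parent (-2.15, SE 0.28, adjusted p = 0.0485). These 5 were the called members of 36 tested stress genes, of which none was higher (0.487% of all genes were lower). With TMM scaling YGP1 and RTC3 did not pass (adjusted p = 0.0625 each), which left 3. The list median was -0.69 relative to all genes, at -1.06 in hybrid library 1 and -0.37 in hybrid library 2. In 31 of the 36 both hybrid values lay below both parental values, beside 56.0% of all genes, and 12 were at least 2-fold apart, beside 3.65%.

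Chaperone genes gave calls in both directions. SSE2, an Hsp110 gene induced by stress, had 19.9 and 20.9 CPM in the hybrid and 76.1 and 81.4 CPM in the parent (-1.95, SE 0.20, adjusted p = 0.0459), and the stress-induced HSP26, HSP30 and HSP31 had differences of -1.93, -1.60 and -1.93 without passing. Their values in the hybrid were 4.04 and 10.2 CPM for HSP26, 8.22 and 11.5 CPM for HSP30 and 48.8 and 70.2 CPM for HSP31, and in the parent 20.8 and 33.5 CPM for HSP26, 32.8 and 26.8 CPM for HSP30 and 177 and 276 CPM for HSP31. HSP60, described above, was the called gain. SSA2, a cytosolic Hsp70 gene, had 2413 and 1729.7 CPM in the hybrid and 891 and 944 CPM in the parent (1.17, SE 0.21, adjusted p = 0.0582), and its counts are uncertain beside its near-identical paralog SSA1. Of the 36 tested chaperone genes, which include HSP12, 1 rose and 2 fell, and in the 16-column fit 8 were higher and 8 lower, beside 4.09% and 25.2% of all genes. Storage carbohydrate genes differed widely between the hybrid libraries. GSY2, the main glycogen synthase gene, had 46.2 and 176 CPM in the hybrid and 404 and 470.3 CPM in the parent (-1.98, SE 0.61, adjusted p = 0.0975), and TPS1, the trehalose phosphate synthase gene, 262 and 775 CPM in the hybrid and 795 and 868 CPM in the parent (-0.68, SE 0.49, adjusted p = 0.361). The trehalose and glycogen list lay at -0.94 relative to all genes in hybrid library 1 and at 0.05 in library 2, so the libraries did not share a direction, and no member of 19 passed. In the 16-column fit 7 of them were lower and 0 higher, and in ribosome occupancy, measured in other libraries, 11 were lower and 0 higher, beside 13.8% and 6.72% of all genes.

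In CPM the largest loss among the called genes was at YHB1 (chromosome VII, 959904 to 961103). It encodes flavohemoglobin, which detoxifies nitric oxide, and had 225 and 174 CPM in the hybrid and 1500.3 and 1899 CPM in the parent (-3.09, SE 0.24, adjusted p = 0.0298). No other of the 30 tested oxidative stress genes passed. PHM8 (chromosome V, 225889 to 226854), whose phosphatase responds to phosphate starvation, had 12.4 and 15.95 CPM in the hybrid and 144 and 126 CPM in the parent (-3.25, SE 0.23, adjusted p = 0.0233). It was likewise alone among 22 tested phosphate genes. The acid phosphatase gene PHO5, whose counts are uncertain beside PHO3, had 206 and 549 CPM in the hybrid and 1145 and 1335 CPM in the parent (-1.72, SE 0.46, adjusted p = 0.0788) and did not pass. GPM2 (chromosome IV, 413953 to 414888), a homolog of the phosphoglycerate mutase gene GPM1 that does not provide its activity in glycolysis, had 3.46 and 4.65 CPM in the hybrid and 38.0 and 37.9 CPM in the parent (-3.22, SE 0.28, adjusted p = 0.0357). GPP2, a glycerol phosphatase gene of the osmotic response, had 72.3 and 74.0 CPM in the hybrid and 188 and 204 CPM in the parent (-1.42, SE 0.18, adjusted p = 0.0485). They were the 2 called genes of 32 in glycolysis and fermentation, and the abundant glycolytic genes were not among them. URA1, the dihydroorotate dehydrogenase gene of pyrimidine synthesis, was near the threshold and did not pass, with 225 and 119 CPM in the hybrid and 768 and 628 CPM in the parent (-2.02, SE 0.35, adjusted p = 0.0582).

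RME1 (chromosome VII, 582990 to 583892), which encodes the repressor that keeps haploid cells from entering meiosis, had 4.33 and 6.50 CPM in the hybrid and 31.1 and 29.9 CPM in the parent (-2.49, SE 0.30, adjusted p = 0.0459). No other of the 31 tested haploid and mating genes passed. In 21 of them both hybrid values lay below both parental values (56.0% of all genes), and in the 16-column fit 11 were lower and 3 higher, beside 25.2% and 4.09% of all genes. RME1 itself did not pass with TMM scaling (adjusted p = 0.0587). Among the higher were PRM7, a pheromone-regulated membrane protein gene, with 58.9 and 141 CPM in the hybrid and 30.5 and 13.6 CPM in the parent (2.18, SE 0.56, adjusted p = 0.0746), and FAR1, the pheromone arrest gene, at the low level of 2.60 and 4.34 CPM in the hybrid and 0.563 and 1.11 CPM in the parent. None of the 36 tested meiosis and sporulation genes passed, and the list median was -0.55 relative to all genes, at -0.35 in hybrid library 1 and -0.54 in library 2. The lowest member of this list had a difference of -4.85, larger in size than any called loss. IME2, a meiotic kinase gene and one of the more abundant of them, had 38.9 and 37.8 CPM in the hybrid and 72.3 and 73.9 CPM in the parent (-0.93, SE 0.19, adjusted p = 0.0599). By abundance in 5 equal bins, the lowest bin of all genes had a median of -0.57 on the log2 scale and the highest bin 0.03.

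The other called losses were spread over several functions. YML131W, an oxidoreductase-like gene, had 40.2 and 47.7 CPM in the hybrid and 173 and 244 CPM in the parent (-2.25, SE 0.25, adjusted p = 0.0459), and ATG34, a receptor gene of selective autophagy, 9.09 and 10.4 CPM in the hybrid and 38.3 and 44.4 CPM in the parent (-2.09, SE 0.24, adjusted p = 0.0459). GDH3, a glutamate dehydrogenase gene, had 5.19 and 6.20 CPM in the hybrid and 25.3 and 22.1 CPM in the parent (-2.06, SE 0.27, adjusted p = 0.0485), with counts that are uncertain beside its paralog GDH1. Cell wall genes gave 2 losses beside the gain at TIR3. TIP1, a cell wall mannoprotein gene, had 101 and 86.3 CPM in the hybrid and 314 and 401 CPM in the parent (-1.93, SE 0.23, adjusted p = 0.0459), and DSE1, a gene expressed in daughter cells, 212 and 186 CPM in the hybrid and 583 and 565 CPM in the parent (-1.53, SE 0.19, adjusted p = 0.0485). CBF1, which encodes a DNA-binding protein of centromeres and methionine gene promoters, had 75.2 and 73.4 CPM in the hybrid and 202 and 209 CPM in the parent (-1.47, SE 0.18, adjusted p = 0.0485), while of the other sulfur and methionine genes only MMP1 passed, as higher. LSC2, a subunit gene of succinyl-CoA ligase in the citric acid cycle, had 81.2 and 74.5 CPM in the hybrid and 210.3 and 209 CPM in the parent (-1.43, SE 0.19, adjusted p = 0.0485). The remaining 6 called losses were the photolyase gene PHR1 (-1.76), the quinone oxidoreductase gene ZTA1 (-1.56), RIE1 (-1.69), MRX16 (-1.44), YBR138C (-1.77) and YLR345W (-1.40). Their mean CPM ran from 19.0 at PHR1 to 40.6 at YLR345W in the hybrid and from 64.4 at PHR1 to 114 at RIE1 in the parent.

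Genes of protein synthesis gave no call. None of the 116 tested cytosolic ribosomal protein genes passed, and the list median was 0.49 above that of all genes. Together they took 20.6% and 16.2% of the counts in the hybrid and 15.8% and 15.7% in the parent, so the hybrid libraries differed from each other more than the second of them differed from the parent. RPP0, the stalk protein gene and the most abundant of the list, had 8253 and 8404 CPM in the hybrid and 6026 and 6163 CPM in the parent (0.45, SE 0.12, adjusted p = 0.0800), and RPL3 8055 and 7569 CPM in the hybrid and 5302 and 5385 CPM in the parent (0.55, SE 0.13, adjusted p = 0.0679). Many other members are near-identical pairs whose counts are uncertain. None of the 90 ribosome biogenesis genes passed either. Their median lay at 0.69 relative to all genes in hybrid library 1 and at -0.13 in library 2, so the list had no direction that both libraries shared. NSR1, whose nucleolar protein takes part in rRNA maturation, had 943 and 658 CPM in the hybrid and 526 and 459 CPM in the parent (0.70, SE 0.24, adjusted p = 0.115). Among 37 translation factor genes none passed, and 2 were at least 2-fold apart. YEF3, the fungal elongation factor gene, had 3967 and 6936 CPM in the hybrid and 1898 and 1823 CPM in the parent (1.55, SE 0.28, adjusted p = 0.0582), with counts that are uncertain beside HEF3, and HYP2, the gene of eIF5A, 2412 and 1815 CPM in the hybrid and 855 and 789 CPM in the parent (1.36, SE 0.20, adjusted p = 0.0552). The 19 aminoacyl tRNA synthetase genes had a median 0.65 above that of all genes, with both hybrid values above both parental values in 14 of them (11.5% of all genes) and no call.

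**Figure D3:**
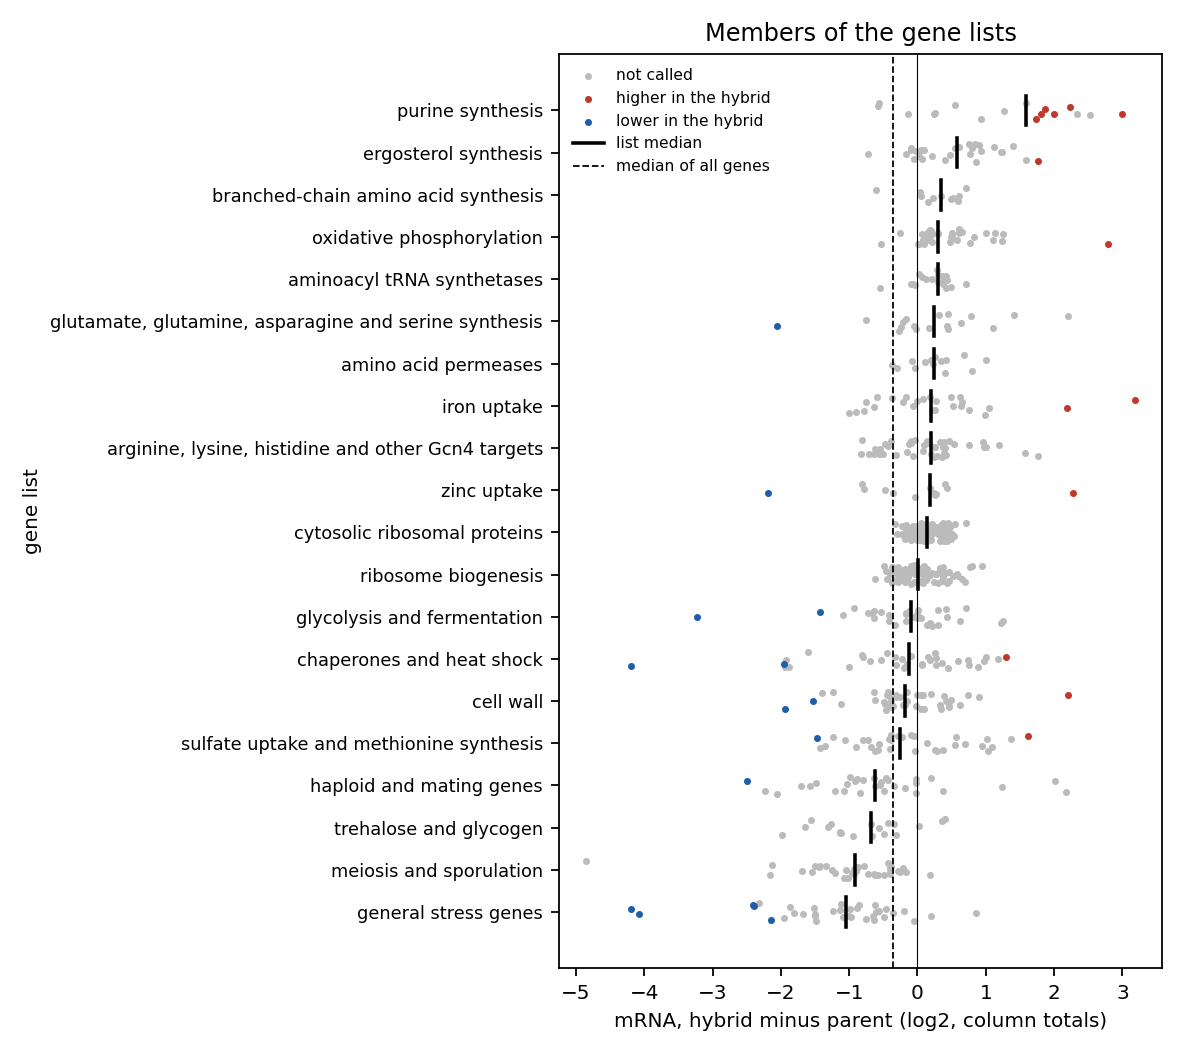
Log2 difference of the S. cerevisiae allele mRNA, hybrid minus parent, for each tested member (points) of 20 of the gene lists, with list medians (black bars) and the median of all genes (dashed line). Purine synthesis lies farthest to the right, with a median 1.95 above that of all genes, and general stress genes farthest to the left, at -0.69.

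Ribosome occupancy of the S. cerevisiae allele was measured in separate libraries, 2 of the hybrid and 2 of the parent, so it is a readout that shares no library with the mRNA comparison. The labels do not say whether RNA-seq and Ribo-seq libraries came from the same cultures, so agreement between them may not be independent. It called 1013 of 4927 genes (20.6%), 331 higher (6.72%) and 682 lower (13.8%). All 43 genes called in mRNA differed in the same direction in occupancy, and 40 of them were called there, 17 as higher and 23 as lower. The exceptions were HSP60, YBR138C and YLR345W, with occupancy differences of 0.29, -0.19 and -0.53. ADE17 had 883 and 3060.5 CPM of footprints in the hybrid and 124 and 150.0 CPM in the parent (3.85, adjusted p = 0.00155). FRE4 had 55.7 and 27.3 CPM of footprints in the hybrid and 3.93 and 2.77 CPM in the parent (3.58, adjusted p = 0.000723), and HMX1 65.8 and 78.2 CPM in the hybrid and 8.42 and 5.55 CPM in the parent (3.33, adjusted p = 6.20e-05). On the lower side HSP12 had 1.03 and 3.02 CPM of footprints in the hybrid and 52.1 and 36.1 CPM in the parent (-4.41, adjusted p = 0.000208), and YHB1 238 and 230.2 CPM in the hybrid and 1704 and 1818 CPM in the parent (-2.91, adjusted p = 7.14e-06). Across 4925 genes the 2 log2 differences correlated by a Pearson r of 0.624 and a Spearman rho of 0.518, a description over genes that are not independent replicates.

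Occupancy also gave calls to lists that the mRNA test left with few, and the list counts here stand beside 6.72% of all genes higher and 13.8% lower. The biological coefficient of variation was 0.113 in the occupancy fit and 0.208 in the mRNA fit, so smaller differences could pass in occupancy. Of the 37 oxidative phosphorylation genes 26 were higher and 0 lower in occupancy, of the 116 ribosomal protein genes 57 and 0, of the 28 ergosterol genes 15 and 3, and of the 17 purine genes 9 and 2. In other lists the called genes were mostly lower. Of the 36 general stress genes 26 were lower and 0 higher, of the 32 glycolysis and fermentation genes 17 and 1, of the 41 cell wall genes 14 and 1, and of the 30 oxidative stress genes 12 and 0. Mitochondrial ribosomal proteins had 24 of 64 genes higher in occupancy and 0 in mRNA. COX5A, named above for mRNA, had 308 and 322 CPM of footprints in the hybrid and 117 and 154 CPM in the parent (1.22, adjusted p = 0.00129), and PHO5 83.3 and 90.8 CPM in the hybrid and 852 and 1034 CPM in the parent (-3.44, adjusted p = 9.41e-06). CTP1, the mitochondrial citrate carrier gene, had 143 and 151 CPM of mRNA in the hybrid and 63.4 and 63.0 CPM in the parent (1.22, SE 0.18, adjusted p = 0.0544), and 65.8 and 60.3 CPM of footprints in the hybrid and 8.53 and 9.96 CPM in the parent (2.78, adjusted p = 4.86e-05). ADR1, an activator gene of growth on ethanol and fatty acids, had 10.1 and 17.3 CPM of mRNA in the hybrid and 29.7 and 23.6 CPM in the parent (-0.96, SE 0.34, adjusted p = 0.122), and 2.64 and 2.89 CPM of footprints in the hybrid and 33.2 and 20.4 CPM in the parent (-3.28, adjusted p = 0.000432). The difference between the occupancy and the mRNA change, translation efficiency, was tested as an interaction over the 8 S. cerevisiae columns. It passed for 0 of 5133 genes (0.0%) by edgeR, while 827 had an unadjusted p under 0.05 and DESeq2 called 154, all lower. Genes called in occupancy alone thus had no called difference between the 2 changes, which does not show that the changes were equal. Without hybrid RNA-seq library 1 this test passed for 1984 genes and without library 2 for 105.

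**Figure D4:**
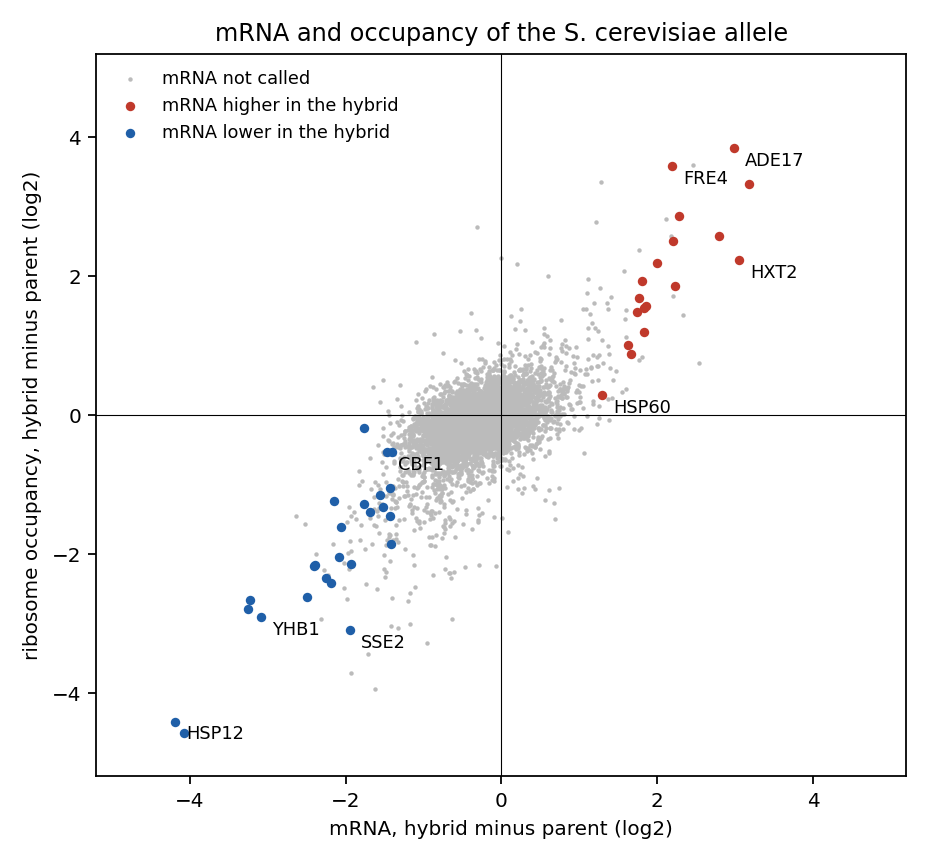
Log2 difference, hybrid minus parent, of ribosome occupancy (vertical) against mRNA (horizontal) of the S. cerevisiae allele, for 4925 genes tested in both. The 18 genes with higher mRNA (red) all lie above 0 in occupancy and the 25 with lower mRNA (blue) all lie below 0.

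The S. paradoxus allele of the same hybrid libraries was compared with diploid S. paradoxus in the same way. That comparison shares the hybrid libraries with the one above, so values are set side by side and the difference between the 2 alleles' changes was tested as an interaction. The S. paradoxus allele gave 210 called genes of 5098 (4.12%), 158 higher (3.1%) and 52 lower (1.02%), and the interaction 216 of 5156 (4.19%), 25 with a more positive change of the S. cerevisiae allele (0.485%) and 191 with a more negative one (3.7%). Both counts moved with single libraries. The S. paradoxus comparison called 36 and 50 genes without S. paradoxus library 1 or 2 and 1094 and 68 without hybrid library 1 or 2. The interaction called 22 and 20 genes without S. cerevisiae library 1 or 2, 7 and 17 without S. paradoxus library 1 or 2, and 787 and 590 without hybrid library 1 or 2. With TMM scaling it called 43 more positive and 62 more negative changes. The median difference of the changes over all genes was -0.34 with column totals and 0.020 with TMM scaling. Of the 43 genes called for the S. cerevisiae allele 33 passed the interaction. It reuses the S. cerevisiae values by which the 43 were chosen, so this count is no independent support for a difference between alleles.

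Most purine genes did not pass the interaction. The S. paradoxus allele of ADE17 had 1958 and 3943 CPM in the hybrid and 791 and 1741 CPM in its parent (1.22, adjusted p = 0.0104), higher as for the S. cerevisiae allele, and the difference of the changes was 1.77 (adjusted p = 0.159). The S. paradoxus alleles of ADE4, ADE2, ADE13 and ADE12 differed by 0.63, 0.57, 0.78 and 0.66 without passing. Among the called purine genes ADE1 alone passed the interaction, with 742 and 873 CPM in the hybrid and 585 and 799 CPM in the parent for the S. paradoxus allele (0.22) and a difference of the changes of 1.77 (SE 0.36, adjusted p = 0.0348). HMX1 rose for the S. paradoxus allele too, with 235 and 331 CPM in the hybrid and 133 and 79.8 CPM in its parent (1.41, adjusted p = 0.00600). FRE4 and ZRT1 ran in opposite directions. The S. paradoxus allele of FRE4 had 105 and 82.0 CPM in the hybrid and 337 and 421 CPM in its parent (-2.02, adjusted p = 3.65e-05, difference of the changes 4.21, SE 0.33, adjusted p = 0.000784). That of ZRT1 had 65.3 and 89.4 CPM in the hybrid and 173 and 158 CPM in its parent (-1.09, adjusted p = 0.0408, difference 3.37, SE 0.37, adjusted p = 0.00456). In the hybrid both alleles of FRE4 lay between the CPM levels of the 2 parents, while for ZRT1 the S. cerevisiae allele lay above both parents and the S. paradoxus allele below both. For HXT2 the S. paradoxus allele had 209.9 and 292 CPM in the hybrid and 363 and 309 CPM in its parent (-0.42), and for CYC1 396 and 382 CPM in the hybrid and 388 and 289 CPM in its parent (0.20). Both passed the interaction.

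At some of the called losses the S. paradoxus allele was called the other way. YHB1 of S. paradoxus had 526 and 529 CPM in the hybrid and 82.0 and 104 CPM in its parent (2.50, adjusted p = 4.00e-07), against the loss at the S. cerevisiae allele, and the difference of the changes was -5.59 (SE 0.35, adjusted p = 0.000159). PHM8 of S. paradoxus had 19.5 and 20.6 CPM in the hybrid and 3.80 and 3.75 CPM in its parent (2.40, adjusted p = 0.000342, difference -5.65, SE 0.36, adjusted p = 0.000159), and YGP1 66.2 and 140.4 CPM in the hybrid and 28.2 and 31.2 CPM in its parent (1.80, adjusted p = 0.000410, difference -4.19, SE 0.55, adjusted p = 0.00977). In these 3 genes both alleles in the hybrid lay between the mean CPM levels of the 2 parents, and the S. paradoxus allele was the higher of the pair. HSP12 of S. paradoxus had 3.32 and 14.9 CPM in the hybrid and 3.66 and 1.53 CPM in its parent (1.80, adjusted p = 0.0519), a value that did not pass, with a difference of the changes of -5.99 (SE 0.95, adjusted p = 0.0163). How reads were placed between the 2 alleles of a gene could not be checked, since no genome sequence was at hand. Over the general stress list the S. paradoxus allele had a median difference of 0.82, with 6 genes higher and 0 lower, beside 3.1% and 1.02% of all genes. Of the list, 11 passed the interaction, all with a more negative change of the S. cerevisiae allele, beside 3.7% of all genes.

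Some of the strongest interactions came from the S. paradoxus side, where the S. cerevisiae allele was not called. SPL2, a regulator gene of phosphate transport, had 167 and 224 CPM in the hybrid and 294 and 295 CPM in the parent for the S. cerevisiae allele (-0.59, SE 0.22, adjusted p = 0.135), and 159 and 231 CPM in the hybrid and 7.61 and 4.17 CPM in the parent for that of S. paradoxus (5.05, adjusted p = 1.63e-15). BDH2, a dehydrogenase gene, had 17.9 and 105 CPM in the hybrid and 165 and 249.7 CPM in the parent for the S. cerevisiae allele (-1.75, SE 0.77, adjusted p = 0.177), and 28.7 and 209 CPM in the hybrid and 6.20 and 4.31 CPM in the parent for that of S. paradoxus (4.50, adjusted p = 7.76e-11). At BDH2 the hybrid libraries themselves were more than 5-fold apart for both alleles. The interaction was -5.63 for SPL2 (adjusted p = 0.000974) and -6.25 for BDH2 (adjusted p = 0.0456). PRM7, with higher values of the S. cerevisiae allele in the hybrid that did not pass, had 36.0 and 64.1 CPM in the hybrid and 235 and 239 CPM in the parent for the S. paradoxus allele (-2.24, adjusted p = 3.28e-06) and an interaction of 4.43 (adjusted p = 0.0172). The largest interaction in either direction among the genes named was 6.57 (adjusted p = 0.00581) at HMRA1, the silent copy of the a1 mating-type gene, whose counts are uncertain beside the other copy at the mating-type locus. Its S. cerevisiae allele had 32.6 and 19.98 CPM in the hybrid and 19.97 and 20.6 CPM in the parent (0.38, SE 0.30, adjusted p = 0.413), and that of S. paradoxus 1 count in each hybrid library and 113 and 62 counts in its parent. The ratio of the pooled S. paradoxus values, hybrid over parent, was 0.0122 (95% exact interval 0.00147 to 0.0448, counting error only). A count of 1 was the lowest of any gene in those hybrid columns, and no S. paradoxus column held a gene at 0. The labels do not say whether a 1 stands for 0. The ratio and the lower end of its interval are therefore uncertain, and the fitted interaction is no bound.

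**Figure D5:**
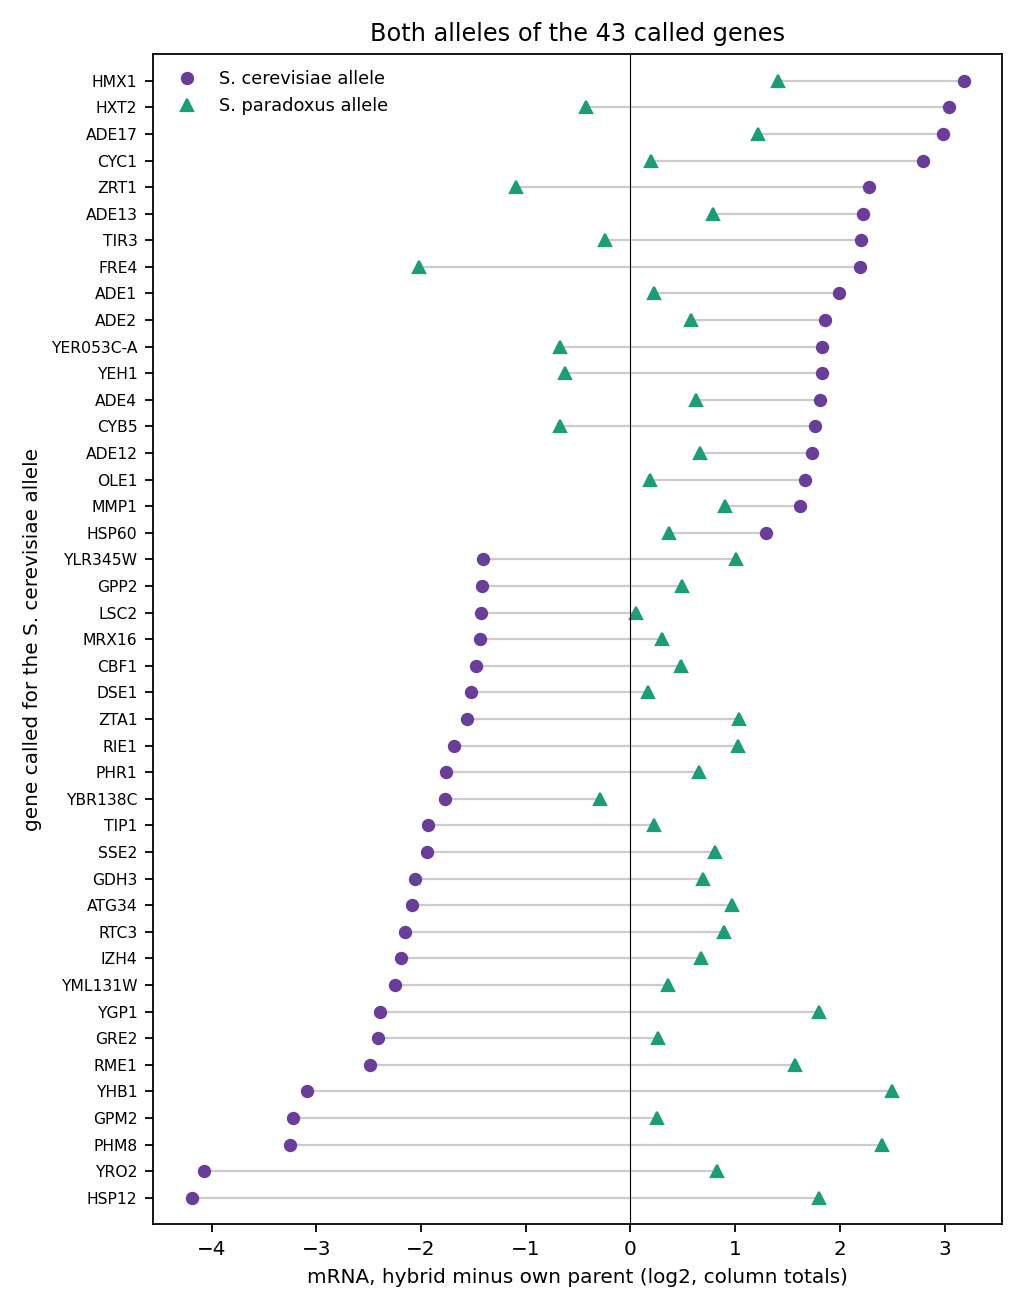
Log2 mRNA difference, hybrid minus own parent, of the S. cerevisiae allele (purple circles) and the S. paradoxus allele (green triangles) for the 43 genes called for the S. cerevisiae allele. Circles run from -4.19 at HSP12 to 3.18 at HMX1, and most triangles lie nearer to 0 or on the other side of it, as at YHB1 (2.50) and FRE4 (-2.02). The genes were chosen by the values of the circles, so triangles nearer to 0 do not by themselves show a difference between alleles.

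The called genes were spread over 13 of the 16 chromosomes, with 3 chromosomes (III, XI and XVI) holding none. Every one of the 43 had 1 exon, as had 4920 of the 5129 genes tested. Chromosome medians lay between -0.07 and 0.17 relative to all genes. Chromosome I had the most positive one over 67 genes, and it lay at -0.03 in hybrid library 1 and 0.26 in library 2. The 88 genes within 20 kb of the outermost annotated gene of a chromosome had a median of -0.36, close to that of all genes, with 2 called higher and 1 lower. By coding length, the medians of the 5 equal bins ran between -0.40 and -0.31, with no steady trend. By abundance they ran from -0.57, -0.52, -0.40 and -0.27 to 0.03 from the scarcest to the most abundant bin, and 11 of the 18 called gains were in the most abundant one. For occupancy the same 5 medians were -0.27, -0.15, -0.09, -0.10 and -0.04. Whether this trend with abundance contributed to the called differences was not tested.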

How the data were processed

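RNA-seq and Ribo-seq of diploid S. cerevisiae, diploid S. paradoxus and their F1 hybrid gave 12 libraries in 6 groups. The deposited values are read counts for 5226 genes, in 16 columns per the file headers, of which each hybrid library has 2, 1 per allele. CASAVA 1.8, cutadapt 1.2.1, Bowtie 0.12.8, bedtools 2.17.0 and the build sacCer3 are named in the submitters' processing notes. Their roles and settings, how reads were placed on an allele, and the use of strand in counting were not given in sources used here, so counts of near-identical paralogs and of overlapping genes are uncertain. None of the 43 called genes overlaps another gene in the R64 table. A symbol was matched for 5183 genes from RefSeq (R64) and 43 kept their ID. The 4 columns compared held 6456613 to 7201063 counts, with 37 and 23 genes at 0 in the hybrid and 15 and 18 in the parent. No other column held a gene at 0. Paired columns of S. cerevisiae and S. paradoxus had nearly equal totals, with 7109313 and 7096639 counts in parental RNA-seq replicate 1. In hybrid RNA-seq library 1 they were 6932791 and 6922017. The labels explain neither pattern, and the tests here treat the values as plain counts.

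From these counts, CPM was computed from column totals. edgeR 4.0.16 in R 4.3.3 was run on the 4 columns compared (quasi-likelihood test, column totals as library sizes, filterByExpr with a minimum count of 10, Benjamini-Hochberg at 0.05), with 2 residual and 3.57 prior degrees of freedom and a biological coefficient of variation of 0.208. The other columns are another assay or the second allele of the same hybrid library, so they entered only alternatives. The SE of a log2 difference is its size over the square root of F. Interactions were fitted over 8 columns. Replicate numbers are only numbers here, since no label ties a hybrid library to a parental one. On simulated counts for this comparison, 100% of genes changed 8-fold and 100% of those changed 4-fold were recovered, with 42% of those changed 2-fold. Of 192 calls there, 21 were false. The simulated spread depended on abundance alone and was equal in both groups, and only genes with ample counts were changed. In the data 504 tested genes differed over 2-fold between the hybrid libraries and 16 between the parental ones. The simulated rates therefore do not give the power of the test on these data. Alternatives were TMM scaling, DESeq2 1.42.0, no filter, a replicate block, each library left out, and fits over 16 and 8 columns. In a further one a coding-length trend was removed, together with each column's general level.

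The comparison, gene lists and tests were chosen with earlier results of these data known. All 43 called genes are named. Others were picked by 3 rules, though not every gene picked for a list is described: the 12 largest called gains and losses that reach 20 CPM in the higher group without overlap, up to 4 called (or 2 most abundant) members of a list, and the 5 largest called genes per direction in the companion tests. The 2-fold separation count, list medians relative to all genes, and the use of the 16-column calls beside lists were chosen after seeing the data. Genes named outside the rules were chosen after their values were seen: ADE3, ADE6, ADE16, ADE57, IMD3, SHM2, FET3, MIG2, NDE1, COX5A, CYT1, ERG11, ERG13, HMG1, MVD1, ACC1, FAS2, HSP26, HSP30, HSP31, SSA2, GSY2, FAR1, MFA1, YEF3, HYP2 and, below, SUE1, MIR1, ARE2 and HPT1.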

Additional observations from a re-analysis of the deposited data

Results flagged for a closer look

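The genes below are those named or called above for which the change of the S. cerevisiae allele differed from that of the S. paradoxus allele by edgeR's test of the interaction over the 8 RNA-seq columns, at an adjusted p under 0.05. Both changes use the same 2 hybrid libraries, and the test reuses the S. cerevisiae values by which the called genes were chosen. Column totals are the scale here, and the median of this test over all genes was then -0.34, against 0.020 with TMM scaling. Over all genes 191 more negative and 25 more positive changes passed with column totals, and 62 and 43 with TMM scaling. Which of the genes below pass with TMM scaling is not reported here. Groups hold 2 samples, so no sample was tested for standing apart from its group. Values are the log2 change of the S. cerevisiae allele minus that of the S. paradoxus allele.

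A more negative change of the S. cerevisiae allele was found in 31 genes. General stress genes and chaperones were HSP12 (-5.99), YRO2 (-4.90), YGP1 (-4.19), HSP30 (-3.74), RTC3 (-3.05), HSP26 (-2.85), SSE2 (-2.76), GRE2 (-2.67) and HSP31 (-2.64). Phosphate genes were PHM8 (-5.65) and SPL2 (-5.63). Enzymes of carbon, nitrogen and redox metabolism were BDH2 (-6.25), YHB1 (-5.59), GSY2 (-4.57), CHA1 (-4.43), GPM2 (-3.48), GDH3 (-2.75), YML131W (-2.60), ZTA1 (-2.60), GPP2 (-1.91) and LSC2 (-1.48). The others were the meiosis repressor gene RME1 (-4.06), ATG34 (-3.06), IZH4 (-2.86), RIE1 (-2.72), PHR1 (-2.42), YLR345W (-2.41), TIP1 (-2.16), CBF1 (-1.95), MRX16 (-1.74) and DSE1 (-1.70).

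A more positive change of the S. cerevisiae allele was found in 14 genes. The largest was at HMRA1 (6.57), a mating-type gene with 1 count of the S. paradoxus allele in each hybrid library. PRM7 (4.43), FRE4 (4.21), HXT2 (3.47) and ZRT1 (3.37) encode membrane proteins of mating, iron, glucose and zinc uptake. CYC1 (2.60), CYB5 (2.44) and NDE1 (1.40) encode proteins of electron transfer. The others were YER053C-A (2.50), YEH1 (2.46), TIR3 (2.44), ADE1 (1.77), NSR1 (1.66) and HYP2 (1.30).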

How the results depend on the processing

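All 43 genes called in mRNA kept their direction in each of the 11 alternatives run, and all 43 were still called in 7 of them, against 25 with TMM scaling, 31 with a trend on coding length removed, and 21 and 19 without S. cerevisiae RNA-seq library 1 or 2. Counts of calls moved far more. For mRNA, TMM scaling called 37 genes (30 higher, 7 lower), no filter 43, DESeq2 426 (315 and 111), the fit over 16 columns 1511 (211 and 1300), that over 8 RNA-seq columns 311 (62 and 249) and the coding-length correction 69 (56 and 13). The coding-length correction also took out each column's general level, so its lost calls cannot be ascribed to length. Its median difference was -0.015, near 0.0066 with TMM scaling and 0.0135 by DESeq2, against -0.35 in the main fit. Leaving out 1 library gave 31 to 3493 calls, 13 to 795 of them higher and 18 to 2698 lower, the largest numbers without hybrid library 1. Occupancy calls were 880 to 1049 with TMM, DESeq2 and no filter, 740 to 993 without 1 library and 347 over 16 columns. The translation efficiency test gave 0 to 1984 without 1 library, 154 by DESeq2, and 0 in the other alternatives. For the S. paradoxus allele the counts were 121 with TMM, 99 with no filter, 170 by DESeq2, 361 over 16 columns and 36 to 1094 without 1 library. For the difference between alleles they were 105 with TMM, 218 with no filter, 465 by DESeq2 and 7 to 787 without 1 library. Replicate numbers are shared by the groups, but no label ties same-numbered libraries. Across the genes tested, the log2 difference between hybrid libraries 1 and 2 correlated by 0.314 with that between parental libraries 1 and 2. Whether same-numbered libraries share an effect was not tested. With the replicate block the calls were 1352 for mRNA (160 higher, 1192 lower), 1649 for occupancy, 0 for translation efficiency, 522 for the S. paradoxus allele and 839 for the difference. HMRA1, which was not called, ran from -0.020 to 0.69 without 1 library, the lowest without hybrid library 1. Of 43 list medians relative to all genes, 10 turned sign without hybrid library 2 and 6 without library 1. A lone library left in a group is taken to vary like the other group. The cause of these shifts was not tested.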

Other observations

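Genes of branched-chain amino acid synthesis and amino acid uptake lay above the median of all genes, and no member of these lists was called. The 11 tested genes of branched-chain amino acid synthesis had a median 0.70 above that of all genes, at 0.31 in hybrid library 1 and 1.04 in library 2. The 14 amino acid permease genes lay at 0.09 in hybrid library 1 and 1.02 in library 2, so most of their difference came from library 2. GNP1, a glutamine permease gene, had 785 and 1203 CPM in the hybrid and 633 and 607 CPM in the parent (0.68, SE 0.25, adjusted p = 0.128). CHA1, the serine and threonine deaminase gene, had 908 and 782 CPM in the hybrid and 1399 and 1376 CPM in the parent (-0.72, SE 0.17, adjusted p = 0.0686), and its S. paradoxus allele 749 and 800.5 CPM in the hybrid and 57.6 and 60.1 CPM in its parent (3.72, adjusted p = 7.05e-12). GUS1, the glutamyl tRNA synthetase gene, had 1635 and 1814 CPM in the hybrid and 1319.7 and 1270.2 CPM in the parent (0.41, SE 0.16, adjusted p = 0.142). The S. cerevisiae alleles of these 3 genes did not pass.

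The 34 proteasome genes had no call and a median of -0.12 relative to all genes, at 0.08 in hybrid library 1 and -0.30 in library 2. In 28 of them both hybrid values lay below both parental values, beside 56.0% of all genes. RPN6, a lid subunit gene, had 381 and 317 CPM in the hybrid and 458 and 459 CPM in the parent (-0.39). In all 9 tested histone genes both hybrid values lay below both parental values, with a list median of -0.05 relative to all genes and no call. HTA1 had 967 and 1113 CPM in the hybrid and 1449.7 and 1309 CPM in the parent, and its counts are uncertain beside those of HTA2. Mitochondrial import genes lay at 0.19 over 46 genes. TOM40, the channel gene of the outer membrane, had 399.6 and 526 CPM in the hybrid and 262 and 272 CPM in the parent (0.79, SE 0.22, adjusted p = 0.0797).

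Some genes stood more than 2-fold apart just outside the threshold. SUE1, needed for the degradation of unstable forms of cytochrome c, had 11.5 and 16.4 CPM in the hybrid and 2.53 and 2.50 CPM in the parent (2.46, SE 0.35, adjusted p = 0.0523). MIR1, the mitochondrial phosphate carrier gene, had 391 and 564 CPM in the hybrid and 194 and 193 CPM in the parent (1.30, SE 0.24, adjusted p = 0.0582). ARE2, an acyltransferase gene that makes steryl esters, had 384 and 444 CPM in the hybrid and 168 and 183 CPM in the parent (1.24, SE 0.20, adjusted p = 0.0572). HPT1, the purine salvage gene for hypoxanthine and guanine, had 747 and 520.1 CPM in the hybrid and 225 and 254 CPM in the parent (1.40, SE 0.25, adjusted p = 0.0582). All 4 were higher in the hybrid in both libraries and were chosen after their values were seen. Genes with more than 1 exon, 209 of those tested, had a median of -0.13 and 0 calls, beside a median of -0.36 and 43 calls among the 4920 genes with 1 exon. Of all genes tested 0.838% were called, so few calls among 209 genes would be likely at that share.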
